A study of Mus musculus with 2 samples.

Results

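The genes described here are 9 members of the PARP family of ADP-ribosyltransferases (Parp1, Parp2, Parp4, Parp8, Parp9, Parp10, Parp11, Parp12 and Parp14) and Dtx3l, the ubiquitin ligase that pairs with Parp9. They were taken by name from a list, 10 genes of the 55536 annotated genes in the gene table, together with all 55 of their annotated transcripts. Following that list, Parp9, Parp10, Parp12, Parp14 and Dtx3l are called interferon-linked here, and they were set against Parp1 and Parp2. Parp4, Parp8 and Parp11 belong to neither set.

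The cells were macrophages differentiated from C57BL/6J mouse bone marrow (BMDM), a cultured primary phagocyte, and had been given lipid A at 100 ng/ml for 12 h. Lipid A is the membrane anchor of endotoxin, sensed by Toll-like receptor 4. After a washout of 12 h the cells met lipid A again at 100 ng/ml for 50 min, and total RNA of the nucleoplasmic fraction was depleted of ribosomal RNA and sequenced in 2 libraries, biological replicates 1 and 2 of a single group. The RNA input was 500 ng for replicate 1 but 1 µg for replicate 2, and the effects of input and replicate cannot be told apart. Both carry the same donor entry, and the labels name no separate animals or cultures, so an SD here measures only the spread between these libraries, which may be technical. No untreated, singly treated or whole-cell library was analysed here, so none of the values below is a response to lipid A. Fewer cells expressing a gene and less RNA per cell cannot be told apart in bulk RNA.

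PARP enzymes move ADP-ribose from NAD onto proteins. Parp1 and Parp2 bind DNA breaks and build poly-ADP-ribose chains there, whereas most other members add single ADP-ribose units. Several of the latter are known as interferon-induced genes: Parp9 and Dtx3l form a complex, Parp14 carries macrodomains that bind ADP-ribose and is known from macrophage polarisation, and Parp10 and Parp12 are linked to antiviral defence. Type I interferon made after Toll-like receptor 4 signalling induces such genes in macrophages through its receptor.

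The gene-level table held 20612114 reads in replicate 1 and 22772087 in replicate 2. Macrophage markers were high in both libraries, with Lyz2 at 1032 and 989 TPM (a level normalised for transcript length and library size) and Ctss at 564 and 826. None of the 19 markers of other cell types exceeded 0.91 TPM in this table, led by Pecam1 (0.60 and 0.78 TPM) and S100a9 (0.31 and 0.91), their sum was 1.89 TPM in replicate 1 and 2.64 in replicate 2, and 5 of them, T, NK and neutrophil cell genes, were at 0 in both. Of the 7 macrophage markers 1, Fcgr1, passed the test between libraries described below (2.10-fold higher in replicate 2), and 6 had ratios above 0. Their part in the differences between libraries of the PARP genes was not tested.

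The interferon-linked genes stood far above Parp1 and Parp2. Parp14 was at 372.51 and 428.15 TPM in replicates 1 and 2, a mean of 400.33 ± 39.3 (SD, n = 2), and held rank 53 among 12140 protein-coding genes that had at least 10 reads over both libraries. Parp1 was at 7.19 and 6.89 TPM and Parp2 at 7.07 and 7.72, both within the upper part of these genes, whose median was 3.59 TPM, and below their 90th percentile of 28.7 TPM. Every interferon-linked member lay above that percentile in both libraries, the lowest value being 36.79 TPM for Parp10 in replicate 1, while the highest value of Parp1 or Parp2 was 7.72 TPM. The ranges of the 2 sets therefore did not overlap.

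On the log2(TPM + 0.1) scale the mean over the 5 interferon-linked genes exceeded the mean over Parp1 and Parp2 by 3.23 in replicate 1 and 3.72 in replicate 2. The average difference was 3.48 ± 0.34 (SD, n = 2), or 11.1-fold, and it is given with no test because the genes were chosen by name. Parp14 carried part of it: without that gene, an alternative added after seeing the data, the difference was 2.62 and 3.19, or 7.49-fold on average. In the index-based transcript table, which was made from reads and a transcript index instead of alignments, the average difference was 2.76. There the lowest interferon-linked gene, Dtx3l, was at 20.6 and 11.3 TPM, still above Parp2, the higher of the other pair, at 7.97 and 4.04 TPM.

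**Figure D1:**
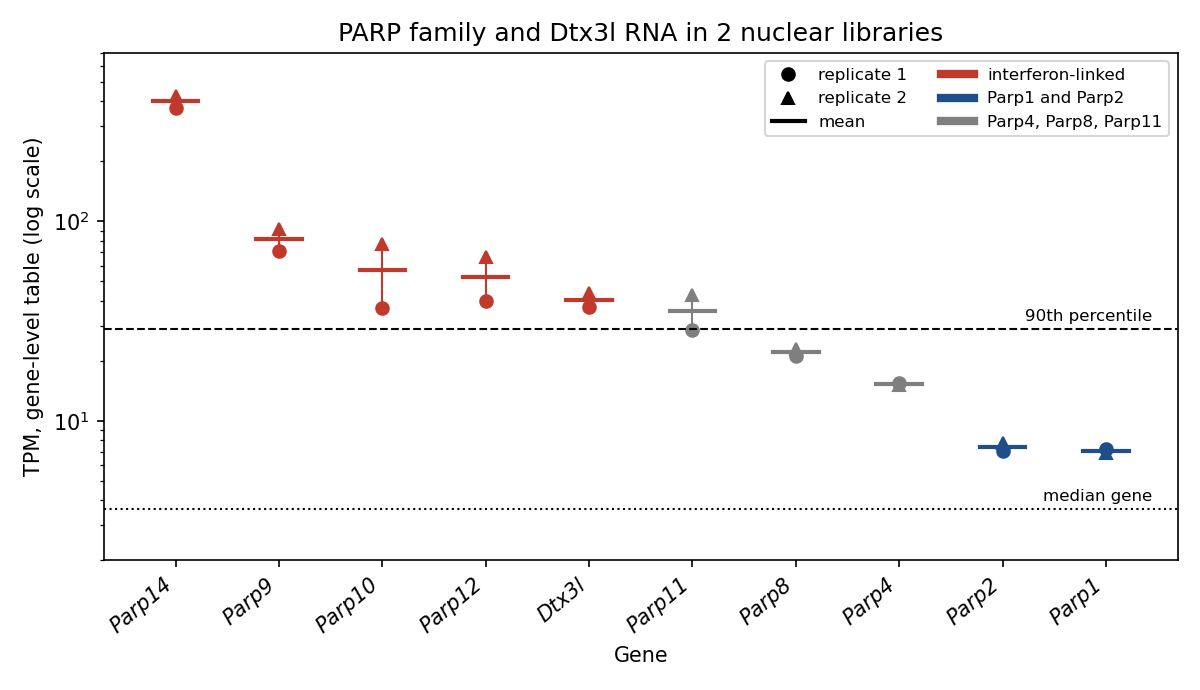
Level of each gene in TPM (gene-level table, log axis) in replicate 1 (circles) and replicate 2 (triangles), with bars at the mean of the 2; the dotted and dashed lines mark the median and the 90th percentile of 12140 protein-coding genes. All interferon-linked genes, in red, lie above the dashed line, and Parp1 and Parp2, in blue, lie between the lines at about 7 TPM.

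Parp14 was 4.90-fold above the next gene, Parp9, and their ranges did not overlap. Below it Parp9, Parp10, Parp12, Dtx3l and Parp11 formed a run in which each neighbour's range overlapped the next. Parp9, a macrodomain protein that acts with Dtx3l, was at 71.23 and 92.11 TPM (mean 81.7 ± 14.8, SD, n = 2). Parp10, a mono-ADP-ribosyltransferase, stood at 36.79 and 76.88 TPM (mean 56.8 ± 28.3), the widest spread of the 10 genes relative to the mean. The zinc-finger member Parp12 had 39.65 and 66.17 TPM (mean 52.9 ± 18.8). Dtx3l was at 37.32 and 43.78 TPM (mean 40.6 ± 4.57), about the level of Parp10 and Parp12 in replicate 1 and below both in replicate 2. This order depended on the transcripts counted. In protein-coding transcripts alone, the mean of Dtx3l (40.6 TPM) was above those of Parp12 (35.8) and Parp10 (32.4).

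Parp11 is a mono-ADP-ribosyltransferase known to act on the degradation of the type I interferon receptor. It was outside the interferon-linked set but reached 28.53 and 42.90 TPM (mean 35.7 ± 10.2), above the 90th percentile of each library (27.9 and 29.7 TPM). Parp8 followed at 21.24 and 22.97 TPM and Parp4, the PARP of the vault particle, at 15.40 and 15.12 TPM. The ranges of Parp11, Parp8, Parp4 and Parp2 did not overlap one another, and those of Parp2 and Parp1 did. Hence the 10 genes ran from the 65.2 percentile of protein-coding genes (Parp1) to the 99.6 percentile (Parp14).

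The absolute TPM depended on what else was in the libraries. Protein-coding genes held 21.04% of all TPM in replicate 1 and 21.9% in replicate 2. Rpph1, the RNA of ribonuclease P, alone held 121891 and 70563 TPM. Rescaled over protein-coding genes, Parp14 was at 1770 and 1951 TPM and Parp1 at 34.2 and 31.4 TPM. In the index-based table the levels of the 10 genes were 0.55 to 1.13 times the gene-level values in replicate 1 and 0.24 to 0.52 times in replicate 2, where the median protein-coding gene with 100 or more reads stood at 0.67 and 0.32. That table held 34650408 estimated reads in replicate 1 and 30887297 in replicate 2, so the order of the library totals was the reverse of the gene-level one.

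Parp14, Dtx3l and Parp9 lie together on chromosome 16 (mm10, GENCODE M21 annotation). Parp14 spans chr16:35832874-35871544 on the minus strand, Dtx3l chr16:35926511-35939151 on the minus strand and Parp9 chr16:35938470-35972605 on the plus strand. Dtx3l and Parp9 start head to head and overlap by 682 bases. Reads from those bases could belong to either gene, and no source used here says whether the counting used strand. The posterior SD of their counts, which reflects how shared reads were divided, was 2.63 and 6.12 reads for both, small beside 5312 and 6947 reads for Parp9 and 6233 and 7517 for Dtx3l. Although they share a start region, Parp9 had 1.91 and 2.10 times the TPM of Dtx3l. In protein-coding transcripts alone the means were closer, at 51.6 TPM for Parp9 and 40.6 for Dtx3l. The high levels did not extend to the next protein-coding gene, Kpna1, an importin, at 4.54 and 3.72 TPM. Inside Parp14, on the same strand, lies Gm49730, an unverified gene model, with 1441 and 2468 reads, so reads of the 2 cannot be fully told apart.

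The other members are spread over the genome, with no other pair of them adjacent. Parp1 lies at chr1:180568924-180601254 and Parp8 at chr13:116854820-117025537, on the plus and minus strands. Parp2 (chr14:50807841-50821301) and Parp4 (chr14:56575619-56659794) are both on the plus strand of chromosome 14. Parp10 is at chr15:76231174-76243441 on the minus strand, and chromosome 6 holds Parp12 (chr6:39086410-39118349, minus strand) and Parp11 (chr6:127446840-127494261, plus strand).

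**Figure D2:**
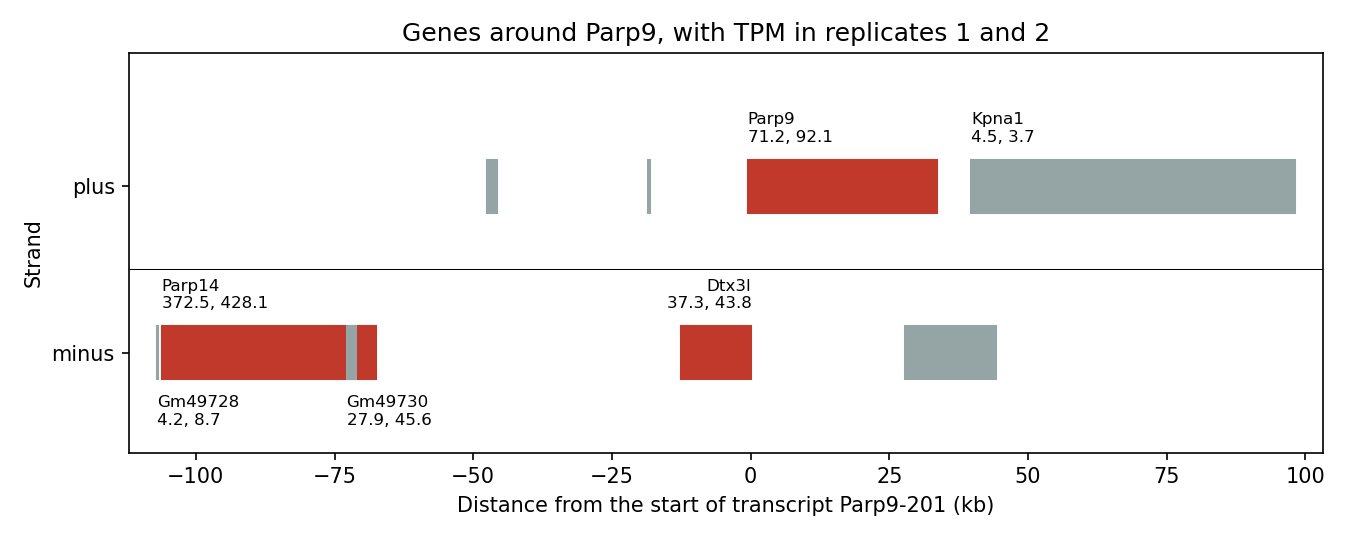
Genes around Parp9 on the plus and minus strands, by distance from the start of transcript Parp9-201 in kb, with TPM in replicates 1 and 2 beside genes with a mean of at least 1 TPM; members of the family and Dtx3l are red and other genes grey. Parp14, Dtx3l and Parp9 carry 37.3 to 428.1 TPM, while Kpna1 to the right carries 4.5 and 3.7.

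Scaled for library size, every interferon-linked gene was higher in replicate 2 than in replicate 1. In the gene-level table Parp1, Parp2 and Parp4 were nearly equal. A ratio above 0 was found for 7 of the 10 genes, against 45.3% of protein-coding genes that reached 100 reads in each library. The log2 ratio of replicate 2 over replicate 1, scaled by TMM (a correction for library composition), was 0.97 for Parp10, from 3089 to 6342 reads, a 1.96-fold difference. That ratio has a 95% exact interval of 0.91 to 1.03, which covers counting error only. Parp12 had 3037 and 5237 reads and a ratio of 0.72 (0.66 to 0.79). Parp9 followed at 0.32 (0.27 to 0.37), Dtx3l, with 1.15-fold more in replicate 2, at 0.20 (0.16 to 0.25), and Parp14, with 69741 and 80471 reads, at 0.14 (0.13 to 0.16). The gene with the most reads thus had the smallest ratio of its set and the narrowest interval.

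Among the other members, Parp11 (2162 and 3102 reads) had a log2 ratio of 0.45 (0.38 to 0.53) and Parp8 (2019 and 2288 reads) of 0.11 (0.03 to 0.20). Parp1 had 782 and 790 reads and a ratio of -0.05 (-0.20 to 0.09), Parp2 336 and 344 reads and -0.03 (-0.25 to 0.19), and Parp4 2569 and 2631 reads and -0.03 (-0.11 to 0.05). The sign of Parp2 depended on the table, with 0.12 in the index-based one. Parp4 was further below 0 there, at -0.18, and was at -0.11 when scaled by library totals. No member reached the rule for a difference between libraries, an adjusted p under 0.05 in a two-sided exact binomial test and at least 2-fold. That rule called 6.65% of 16140 genes tested, 4.63% as higher and 2.01% as lower in replicate 2, and 1.43% of 7845 protein-coding genes that reached 100 reads in each library.

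By the adjusted p alone, with no minimum ratio, 7 of the 10 were higher in replicate 2 and 0 lower (Benjamini-Hochberg adjusted binomial test; Parp10 at 1.31e-217, Parp12 at 6.93e-108, Parp14 at 1.52e-77, Parp8 at 0.0274). The same rule called 19.7% of genes higher and 19% lower. Those shares are over all 16140 genes tested, of which 8641 had 100 or more reads in both libraries, as every member did. A binomial p depends on the number of reads, so the shares are not at like depth. Of the 7 members, Parp8 rested on the scaling, with a log2 ratio of 0.04 by library totals. The 0 lower is for the gene-level table with TMM scaling. Parp4 had a log2 ratio of -0.18 in the index-based table and -0.11 by library totals. The unadjusted binomial p was under 0.05 for the same number, 7 of 10. The share of all genes with an unadjusted p under 0.05 was not computed, here or for the next test. In the edgeR exact test with a dispersion of 0.04, which allows a spread between cultures, 0 members passed, 1 had an unadjusted p under 0.05 (Parp10, p = 0.0192) and its adjusted p was 0.457. Among all genes that test called 0.917% higher and 0.297% lower. These tests compare 2 libraries and say nothing of a condition.

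**Figure D3:**
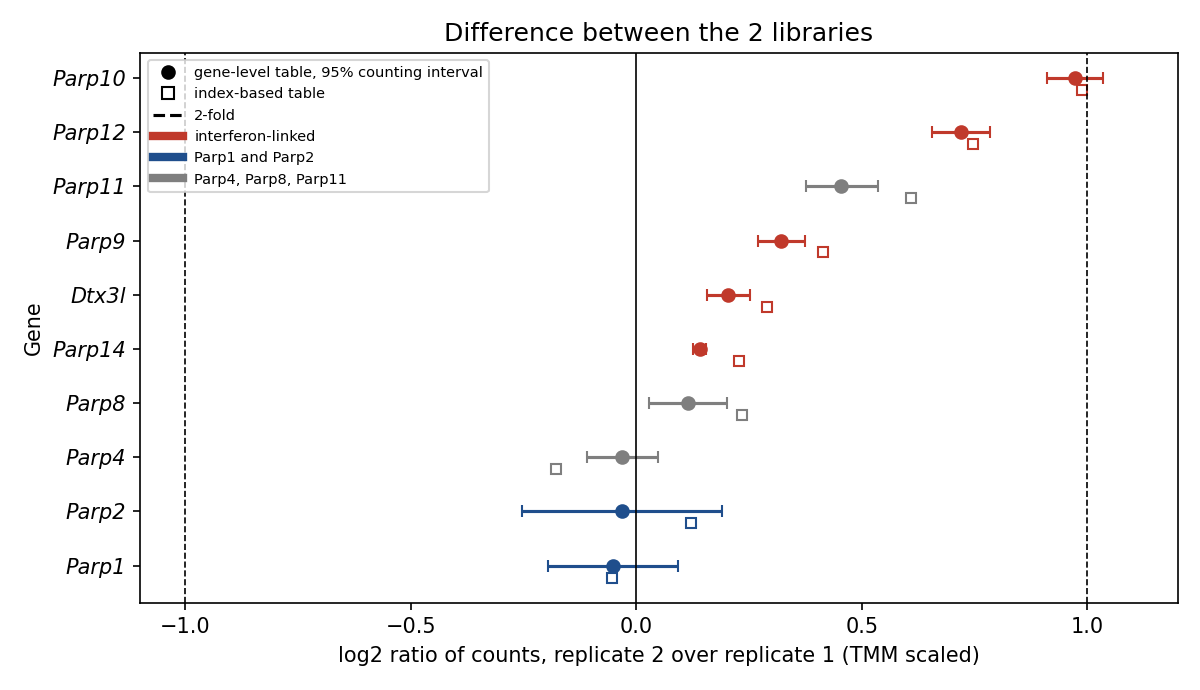
Log2 ratio of reads in replicate 2 over replicate 1 for each gene, TMM scaled: circles show the gene-level table with 95% counting intervals, open squares the index-based table, and dashed lines a 2-fold difference. Parp10 lies nearest the 2-fold line at 0.97, Parp14 at 0.14 has the narrowest interval, and Parp1, Parp2 and Parp4 lie at 0 within their intervals in the gene-level table.

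Reads of Parp11 were also compared by annotated start. The starts were picked after their values were seen, so this is a description with no test. Parp11-202 starts at the gene's upstream end (chr6:127446840, plus strand). Downstream, 5 transcripts start between 127453620 and 127453723, led by Parp11-201 at the last of these positions, 6883 bases from the upstream start.

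Parp11-202 had 789 estimated reads in replicate 1, with a posterior SD of 85.9, and 1454 (84.8) in replicate 2. The downstream transcripts together had 1034 and 980 reads. Of these Parp11-201 held 900 (89.6) and 802 (89.7), and the other 4, which had 134 and 179 reads in sum, each had a ratio above 0. The upstream start thus held 43.3% of the reads of both starts in replicate 1 and 59.7% in replicate 2, or 69.0% and 75.5% in the index-based table.

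Scaled for library size, the log2 ratio was 0.82 for the upstream start and -0.14 for the downstream start as a whole. In the index-based table these were 0.70 and 0.23, so the sign of the downstream start depended on the table. Parp11-201 alone had -0.23 and, in the index-based table, -0.61.

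The bases before the upstream start and before the first of the downstream starts, that of Parp11-206, are shown to compare the letters there. They come from RefSeq's promoter windows (GRCm38.p6, 250 bases before to 50 after a start) and stop where annotated exons begin. They were searched on both strands for an ISRE core, GAAANNGAAA, the core of the interferon-stimulated response element, printed in capitals. This core occurs in 3.44% of the 32851 windows of that length. The upstream stretch is chr6:127446590-127446839 and the downstream one chr6:127453377-127453619, both on the plus strand.
Before Parp11-202: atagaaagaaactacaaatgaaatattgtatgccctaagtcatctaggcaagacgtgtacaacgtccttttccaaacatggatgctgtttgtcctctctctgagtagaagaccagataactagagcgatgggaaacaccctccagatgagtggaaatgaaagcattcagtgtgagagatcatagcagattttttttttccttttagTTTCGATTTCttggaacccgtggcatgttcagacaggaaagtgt
Before Parp11-206: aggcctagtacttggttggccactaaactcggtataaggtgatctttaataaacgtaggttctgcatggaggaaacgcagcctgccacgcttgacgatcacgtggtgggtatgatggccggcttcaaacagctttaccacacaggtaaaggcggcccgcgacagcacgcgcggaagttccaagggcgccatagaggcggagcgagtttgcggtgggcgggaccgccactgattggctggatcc

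The upstream stretch holds 1 match and the downstream stretch none. The bases directly before Parp11-201 are exon bases of other Parp11 transcripts or lie past the end of the RefSeq window, and are not covered by this search in full. A second core, TTCNNNGAA, the element known as GAS, reads the same on both strands and occurs in 8.3% of windows. In the Parp11 upstream window it overlaps the ISRE core match, and it was found in no other member's window. A match is a description of the letters, and no match says only that they are not in this window.

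Windows were present for 7 of the 10 genes, 8 windows in all, and 2 of the 8 held an ISRE core, those of Parp11 upstream and of Parp4. Parp4 lay below the 90th percentile, with nearly equal gene-level shares in the libraries. Its stretch carries 2 overlapping cores between the starts of Parp4 and of the divergent gene Cenpj (chr14:56575426-56575618, plus strand). Parp12, by contrast, was among the higher genes, and its stretch holds none (chr6:39118350-39118472, minus strand). Dtx3l, also above the 90th percentile, had a window with no ISRE core (chr16:35938978-35939277). Parp9, Parp10 and Parp14 had no window of their own in the table, though that of Dtx3l spans the start of Parp9-201.
Parp4: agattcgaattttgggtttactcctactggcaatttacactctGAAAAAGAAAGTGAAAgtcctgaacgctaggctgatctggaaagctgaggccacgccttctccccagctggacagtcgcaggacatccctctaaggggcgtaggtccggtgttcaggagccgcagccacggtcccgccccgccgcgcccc
Parp12: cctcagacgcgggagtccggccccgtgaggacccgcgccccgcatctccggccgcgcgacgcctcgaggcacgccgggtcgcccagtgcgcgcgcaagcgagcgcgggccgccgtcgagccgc

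The 123 bases printed for Parp12 are all that separates its start from that of 4930599N23Rik, an antisense RNA on the plus strand. That neighbour had 25 and 145 reads and was the single neighbour of the 10 genes that passed the test between libraries, at 5.45-fold higher in replicate 2 (adjusted p = 1.92e-19, binomial test). Its level was 1.15 and 6.14 TPM. Cenpj, a centriole gene with 193 bases between its start and that of Parp4, had 537 and 608 reads and a log2 ratio of 0.11. Grina, which starts 3323 bases from the start of Parp10, had 4497 and 6515 reads and a ratio of 0.47. Gm43633, an unverified gene model inside Parp11, had 203 and 312 reads. Few or no reads fell on 5 further neighbours: Gm16573 had 3 and 6 reads, Ccnb1ip1 0 and 2, Gm15564 0 and 1, and Mir6904 and Mir6953 none.

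Parp2 shares a start region with Rpph1, which is transcribed the other way. The 73 bases between the starts (chr14:50807768-50807840, plus strand, RefSeq GRCm38.p6) separated 121891 and 70563 TPM of Rpph1 from 7.07 and 7.72 TPM of Parp2, and are shown for that reason, with no letters marked.
Parp2: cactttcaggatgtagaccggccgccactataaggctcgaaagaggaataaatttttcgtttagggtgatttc

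Parp9 was looked at in the same way, again after the values were seen. Parp9-203 starts 541 bases upstream of Parp9-201, inside Dtx3l on the other strand, and had 1626 (posterior SD 74.2) and 2747 (101.1) estimated reads, a log2 ratio of 0.69 scaled for library size. At the downstream start Parp9-201 had 2964 (77.7) and 3057 (100.6) reads. The retained-intron transcripts Parp9-202 (407 and 634 reads) and Parp9-205 (238.8 and 392.3) and the small Parp9-204 (22.1 and 21.2) start there too. The 4 together had a ratio of 0.11. By the index-based table it was 0.03, and that of Parp9-203 was 0.79. The upstream share was 30.9% and 40.1%, or 42.5% and 55.6% in the index-based table. Reads of Dtx3l fall on the same bases if strand was not used in the counting, which was not tested.

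**Figure D4:**
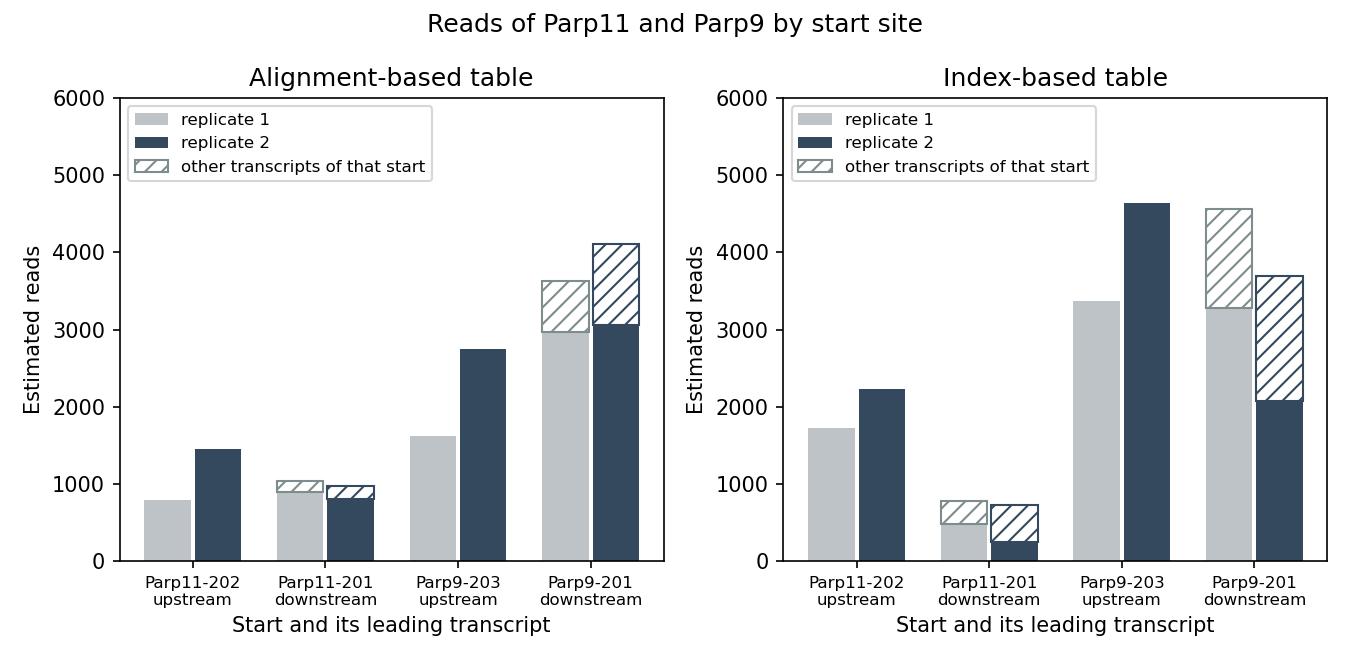
Estimated reads by start of Parp11 and Parp9 in replicate 1 (grey) and replicate 2 (dark), in the alignment-based table (left) and the index-based table (right), not scaled for library size; solid bars are the named transcript and hatched parts the other transcripts of that start. The upstream transcripts have more reads in replicate 2 in both tables, such as 1454 against 789 for Parp11-202, and at the downstream starts the hatched parts are larger in replicate 2.

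Nuclear RNA holds unfinished transcripts. By TPM, transcripts annotated as retained introns held from 10.03% to 47.1% of the signal of the 9 genes that have them. Protein-coding transcripts made up 65.2% ± 3.68 (SD, n = 2) of the TPM of Parp14 and retained introns 34.8%. For comparison, protein-coding genes with 100 or more reads in each library and such a transcript in the annotation had a median retained-intron share of 19.9% in replicate 1 and 22.8% in replicate 2. Per gene, the retained-intron share was 27.5% and 31.9% for Parp9, 19.2% and 18.2% for Parp10, and 31.7% and 32.6% for Parp12. Parp11 had 36.3% and 45.4%, Parp8 36.6% and 44.8%, Parp2 33.4% and 47.1%, Parp4 20.5% and 19.8%, and Parp1 11.4% and 10.03%. Of the 9 genes with such transcripts, 7 lay above the median in replicate 1 and 6 in replicate 2. Dtx3l has 2 annotated transcripts, both coding.

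The interferon-linked genes and Parp1 and Parp2 did not separate by this share, since Parp2 held the highest value and Parp1 the lowest of the 9 genes with such transcripts in replicate 2. These shares rest on short annotated pieces and on the unit: by estimated reads instead of TPM, retained introns were 13.5% and 17.8% of Parp14 and 1.22% and 1.33% of Parp1. By reads they were also lower for Parp4 (2.52% and 2.52%), Parp12 (10.9% and 11.5%), Parp9 (12.2% and 14.8%) and Parp11 (16.5% and 22.8%). They stayed near the TPM shares for Parp10 (18.8% and 19.6%), Parp2 (34.3% and 43.5%) and Parp8 (39.1% and 47.3%). The index-based table moved some of the TPM shares further. It gave Parp1 45.04% and 37.7% retained introns and Parp4 0.73% and 4.17%.

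**Figure D5:**
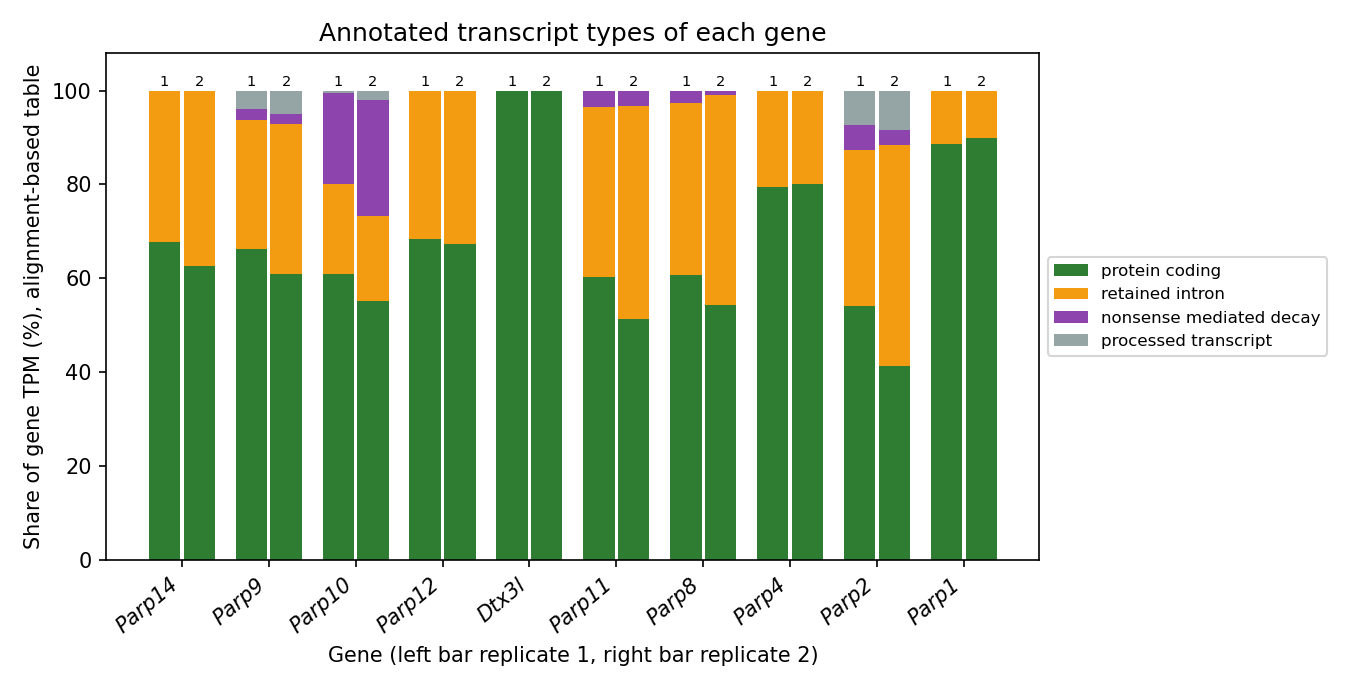
Share of each gene's TPM (alignment-based table, percent) in annotated transcript types, with replicate 1 on the left and replicate 2 on the right of each pair of bars. Parp1 and Parp4 are mostly protein coding in this table, Dtx3l entirely, and Parp10 has the largest share annotated as nonsense-mediated decay, 19.3% and 24.6%.

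Parp14 has 3 annotated transcripts. The coding Parp14-201 was at 252.63 and 268.08 TPM, Parp14-203 at 69.88 and 103.26, and the short Parp14-202 at 50.01 and 56.81. Parp14-203 keeps intron 5 of the 16 introns of Parp14-201, 1665 bases (chr16:35858765-35860429, minus strand, in the coding part). Its log2 ratio of TPM between libraries was 0.56, against 0.09 for the coding transcript. Reads across the following boundaries tell RNA spliced at this intron from RNA that still holds it. Unfinished RNA of Parp14-201 would have the same intron boundaries as Parp14-203, so such reads cannot separate those 2. The boundaries are shown 5′ to 3′, from the GENCODE M21 transcripts. Exon bases are in lower case and the kept intron's first and last 15 bases in capitals.
Parp14-201 spliced: tttgtgacagcaaagtgttagacaccgtca
Parp14-203 intron start: tttgtgacagcaaagGTCGGTGTCTCAGCC
Parp14-203 intron end: GTTTTGCTTTTGAAGtgttagacaccgtca

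The reads of Parp10 were divided over several transcripts. Its coding transcripts Parp10-202 and Parp10-201 were at 11.22 and 18.02 and at 11.21 and 24.32 TPM, with posterior SDs of 113 to 181 reads, since they share most of their sequence. Parp10-203 keeps an intron of 80 bases, intron 3 of the 9 in Parp10-202 (chr15:76242323-76242402, minus strand), and was at 5.35 and 11.04 TPM. Its log2 ratio of TPM, 1.045, was above that of Parp10-202 (0.68) and close to that of Parp10-201 (1.12).
Parp10-202 spliced: ttcagcaatggcaggtggctgaacgggtgc
Parp10-203 intron start: ttcagcaatggcaggGTAAGTGGTGTCTGA
Parp10-203 intron end: TCTCTCTCCCTCCAGtggctgaacgggtgc

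Parp10-205, annotated as nonsense-mediated decay, was at 7.10 and 18.90 TPM and lies at the end of the gene, where Parp10 overlaps Plec by 1401 bases on the same strand. Plec, a cytoskeletal linker, had 17318 and 23295 reads, and reads from those bases could belong to either gene. The posterior SD of the gene-level Parp10 count was small, at 0.39 and 1.11 reads. The index-based table put Parp10-205 at 1.11 and 2.05 TPM. Without it, an alternative added after seeing the data, Parp10 was at 29.7 and 58.0 TPM with a log2 ratio of 0.93, against 36.79 and 76.88 TPM and 0.97 with it.

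The other genes had 1 leading coding transcript or a pair. Parp12-201 was at 27.09 and 44.58 TPM and its retained-intron partner Parp12-202 at 12.56 and 21.59, ratios of 0.72 and 0.78 that hardly differed. Parp9-201 had 32.44 and 32.15 TPM, Parp9-203 14.73 and 23.94 and the retained-intron transcript Parp9-205 14.42 and 21.74. In Dtx3l, Dtx3l-201 held 97.9% and 96.5% of the TPM and Dtx3l-202 the rest, 0.77 and 1.53 TPM. Parp11-201 and Parp11-202 were at 7.69 and 6.60 and at 7.45 and 13.20 TPM, with the retained-intron transcript Parp11-210 at 4.77 and 8.86. Parp8-203 was at 11.52 and 10.75 TPM, while its retained-intron transcript Parp8-202 was at 6.21 and 8.04.

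Among the lower genes, Parp4-201 had 12.24 and 12.12 TPM and Parp4-202 3.16 and 3.0, nearly equal between the libraries. Parp1-201 was at 6.37 and 6.19 TPM, with Parp1-204 next at 0.63 and 0.40 on 7 and 5 reads. Parp2-201 was at 3.82 and 3.20 TPM, and Parp2-206, a retained intron, at 1.56 and 1.59. The tables differed on some transcripts. Parp11-204 was at 0 in both libraries of the alignment-based table and at 5.96 and 3.72 TPM in the index-based one, and Parp9-207 was at 0.47 and 0.91 against 13.5 and 6.32 TPM.

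The signalling genes upstream of interferon targets were high too. Of the 6 genes of interferon receptor signalling reported here, 4 had means above the 90th percentile, led by Stat2 at 120 and 220 TPM and the receptor subunit Ifnar1 at 48.2 and 41.2 TPM. None passed the test between libraries, 5 had ratios above 0 and the list's median log2 ratio was 0.19. The interferon-linked PARP genes had a median of 0.32 with 5 of 5 above 0, and Parp1 and Parp2 had a median of -0.04. The macrophage markers had a median of 0.56 with 6 of 7 above 0, ranging from -0.05 for Lyz2 to 1.07 for Fcgr1. Whether any of these markers responds to interferon was not tested. All 10 interferon-stimulated genes listed lay above the 90th percentile, with Rsad2 at 625 and 1127 TPM and Ifit2 at 484 and 653, and a median ratio of 0.84. Of these, 3 passed as higher in replicate 2: Isg15 at 2.25-fold, Irf7 at 2.21-fold and Cmpk2 at 2.68-fold. Over all genes tested the median log2 ratio was 0.01 and 4.63% passed as higher in replicate 2. Among protein-coding genes with 100 or more reads in each library, 1.43% passed in either direction.

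Other ADP-ribosyltransferases covered a wide range. Zc3hav1 (PARP13), an antiviral RNA-binding protein without catalytic activity, was highest at 90.4 and 103 TPM, followed by Tiparp (PARP7), a mono-ADP-ribosyltransferase induced by the aryl hydrocarbon receptor, at 26.0 and 25.1 TPM. Of this list 0 of 7 passed the test in either direction, 4 had ratios above 0 and the median ratio was 0.03. Of 6 genes that remove ADP-ribose, 2 had means above the protein-coding median, and none was above the 90th percentile: Parg, which cuts chains, was at 10.7 and 8.02 TPM and Adprh at 6.11 and 7.17. Of 5 tested, 1 was lower in replicate 2, Macrod2 at 3.84-fold on 16 and 4 reads, and the list's median ratio was -0.04.

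Partners of Parp1 in break repair had mean levels from 0.48 to 15.8 TPM. Xrcc1, the scaffold recruited by poly-ADP-ribose, was at 15.2 and 16.4 TPM and Polb, the repair polymerase, at 7.62 and 9.41, with 0 of 7 passing and a median ratio of -0.04. Among genes for NAD, Nampt, the enzyme of the salvage route, was at 64.44 and 64.42 TPM and the NAD-consuming Cd38 at 15.4 and 19.6. None of the 6 tested passed, and their median ratio was -0.0021. The other deltex ligases were below Dtx3l, with Dtx3 at 12.1 and 13.9 TPM and Dtx4 at 7.83 and 7.59, 0 of 3 tested passing, a median ratio of 0.15, and Dtx1 at 0 reads in both libraries.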

How the data were processed

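The authors deposited, per library, a gene-level table and 2 transcript tables made on mm10 with the GENCODE M21 annotation, per the file headers. The gene-level and alignment-based transcript tables derive from transcriptome alignments and hold deposited expected counts (estimated reads), TPM, FPKM and a posterior SD of each count, a deposited signal in reads; the index-based table holds estimated counts and TPM. TPM and FPKM were normalized by the authors per length and library. They come from an aligner and counter not given in the sources used here. Rows naming no gene, 0.1437% and 0.081% of counts, were left out.

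Expected counts were rounded and compared by a two-sided exact binomial test against TMM library shares (edgeR 4.0.16, R 4.3.3), with 0.5 added to each count for ratios, Benjamini-Hochberg adjusted over the 16140 genes whose counts reached 10 over both libraries; a gene passed at adjusted p under 0.05 and an absolute log2 ratio of at least 1. Intervals cover counting error only, at 95%. With 1 library against 1 no residual degrees of freedom remain; edgeR's common dispersion over both was 0.0546. DESeq2 1.42.0 gave size factors for an alternative. On simulated Poisson counts for replicate 2 against replicate 1 (16132 genes), 98% of 100 genes with a true log2 change of 1.5 were called. Of 100 genes with 2.5, 100% were called, and of genes without a change 0.0251%. Poisson counts hold counting error only, so these rates do not cover a wider spread such as the dispersion of 0.0546.

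All 10 members passed the count filter. For each, the 2 transcripts with the highest mean TPM and any other at 10% or more of the gene's TPM in both libraries were to be named; in other lists, the 2 highest members and any that passed; and neighbours overlapping a member or starting within 5 kb. Transcripts compared by start (downstream ones within 200 bases of the leading transcript's start), and those on which the tables differed, were named after their values were seen. The members and lists were chosen with earlier results of these data known. From the list of interferon receptor signalling 1 gene is not reported here, and the list's counts and median leave it out. Alternatives covered scaling, count minimums, dispersions, tables, units, pseudocounts and single libraries.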

Additional observations from a re-analysis of the deposited data

How the results depend on the processing

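The excess of the interferon-linked genes over Parp1 and Parp2, 3.48 on the log2 scale, kept its direction under every alternative run, and moved by more than its SD of 0.34 to 2.76 in the index-based table, 2.92 as a difference of medians, 4.10 in CPM, which is not per length, and 2.90 without Parp14 (added after seeing the data). Leaving out a library gave 3.23 to 3.72. The count of genes differing between libraries, 1073, became 2312 in the index-based table, 172 with 100 or more counts in both libraries, 196 in the edgeR exact test with dispersion 0.04 and 6255 by adjusted p alone; members passing stayed at 0 under 8 of the alternatives and became 7 by adjusted p alone. Where these counts fell, fewer genes or a wider spread was set by the alternative; elsewhere the cause was not tested. The ratio of Parp2 reversed to 0.12 in the index-based table, the cause was not tested, and those of the other 9 genes kept their direction there. No paired analysis was possible because the 2 libraries form a single group. Depth limits Parp1 and Parp2 most: with 336 to 790 reads their ratios have intervals 0.29 to 0.44 wide.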
